A study of Homo sapiens with 4 samples.

Results

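MamGypLTR repeats are the long terminal repeats (LTRs) of mammalian Gypsy-type elements. The deposited ChIP-seq table names LTR subfamilies by their repeat annotation, and the 7 rows whose name begins with MamGypLTR were taken, of 373 rows in all: MamGypLTR1a, MamGypLTR1b, MamGypLTR1c, MamGypLTR1d, MamGypLTR2b, MamGypLTR2c and MamGypLTR3. The rule that chose them used the name and no measured value, but it was set with earlier results of these data known. The experiment used HCT116, a long-established cell line from a human colorectal carcinoma. One arm was exposed for 24 h to 5-aza-CdR at 300 nM and the other to PBS, and both were harvested at 5 days. 5-aza-CdR (5-aza-2'-deoxycytidine, decitabine) is a cytosine analogue that traps DNA methyltransferases, so that DNA methylation is lost as cells divide. Native ChIP-seq on single nucleosomes was done with an antibody to H3K9me2 and an antibody to H3K9me3 in each arm. The 4 libraries were thus H3K9me2 in 5-aza-CdR, H3K9me2 in PBS, H3K9me3 in 5-aza-CdR and H3K9me3 in PBS, with 1 library each and no replicate.

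Gypsy elements are one of the large classes of LTR retrotransposons. They remain active in many plants, insects and fishes, whereas in mammals they survive as old, inactive remnants and as a few genes that the host has taken over, such as PEG10 and RTL1. An LTR holds the promoter and polyadenylation signals of its element, and most LTRs in the human genome come instead from endogenous retroviruses. H3K9me2 and H3K9me3 are histone H3 carrying 2 or 3 methyl groups on lysine 9, added mainly by G9a and GLP and by SETDB1 and the SUV39H enzymes, and both are associated with silent chromatin. Methylated CpG sites mutate over time, so old methylated repeats tend to be poor in CpG, and CpG density bears on any comparison of repeats after a DNA methylation inhibitor.

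All values are the authors' z-scores, 1 per subfamily and library, a relative scale with no read counts behind it in the table, so the depth is unknown. A percentile is the percentage of the other 372 subfamilies that had a lower z-score in the same library. With 1 library per group, no difference between 5-aza-CdR and PBS could be tested, and no order of neighbouring values among the 7 subfamilies could be set against a replicate spread. The whole table moved between the arms: 99.7% of subfamilies for H3K9me2 and 100% for H3K9me3 had the higher z-score in 5-aza-CdR. No source used here says on which population each library was standardised. A shift shared by the whole table therefore cannot be told apart from a difference in scale between the libraries, and percentiles are given beside the z-scores.

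The MamGypLTR subfamilies all lay below the table median in CpG density, and all but MamGypLTR3 were close to each other. Their densities ran from 0.00538 in MamGypLTR2b to 0.00679 in MamGypLTR3, against a table median of 0.00734 and a highest value of 0.0671. The 4 MamGypLTR1 subfamilies lay between 0.00570 and 0.00588. Another 100 subfamilies fell within the range of the 7. For each MamGypLTR subfamily, the 20 other subfamilies nearest in CpG density were taken as its CpG neighbours. The sets overlap in part and hold 75 distinct subfamilies with densities from 0.00521 to 0.00691, among them 23 MER, 12 MLT1 and 5 MLT2 subfamilies. The sets of MamGypLTR2b and MamGypLTR3 share no subfamily with any other set. Each of these sets of 20 therefore weighs more among the 75 than its member does among the 7. The table gives no repeat class, and 14 of the 75 (13 LTRs numbered 78 and above, and MamRep1527) have names that do not show them to be retroviral, so values without such names are also given.

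For H3K9me2, the MamGypLTR subfamilies were high among LTRs in both arms. In the 5-aza-CdR library their z-scores ran from 0.470 to 0.659, with a median of 0.549, against a median of 0.310 for the 366 other subfamilies. In the PBS library they ran from -0.284 to -0.149, with a median of -0.224, against -0.415 for the others. The median percentile of the 7 was 86.6 in 5-aza-CdR and 86.6 in PBS. All 7 lay at or above percentile 75 in each H3K9me2 library, where 94 of the 373 subfamilies lie by construction. Of their 75 CpG neighbours, 36 lay there in 5-aza-CdR and 38 in PBS. The neighbours of MamGypLTR3 lower these counts, with median H3K9me2 percentiles of 62.8 in 5-aza-CdR and 58.6 in PBS. For every other member the neighbour median was at least 76.3 in 5-aza-CdR and 76.5 in PBS.

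MamGypLTR2b and MamGypLTR2c headed the group. MamGypLTR2c had an H3K9me2 z-score of 0.659 in 5-aza-CdR (percentile 94.9) and -0.197 in PBS (percentile 89.5). MamGypLTR2b had 0.631 in 5-aza-CdR (percentile 93.3) and -0.149 in PBS (percentile 94.4). They were the highest 2 of the 7 in 5-aza-CdR, and in PBS MamGypLTR1d came between them. MamGypLTR1d had 0.561 in 5-aza-CdR (percentile 87.6) and -0.181 in PBS (percentile 91.4). MamGypLTR1b had 0.549 in 5-aza-CdR (percentile 86.6) and -0.239 in PBS (percentile 84.9). These stood above the 3 remaining subfamilies in 5-aza-CdR, while in PBS MamGypLTR1c came ahead of MamGypLTR1b. MamGypLTR1c had 0.490 in 5-aza-CdR (percentile 79.8) and -0.224 in PBS (percentile 86.6). MamGypLTR3 had 0.503 in 5-aza-CdR (percentile 82.3) and -0.284 in PBS (percentile 76.3). MamGypLTR1a had 0.470 in 5-aza-CdR (percentile 76.9) and -0.266 in PBS (percentile 79.0). MamGypLTR1a was the lowest of the 7 in 5-aza-CdR and MamGypLTR3 the lowest in PBS.

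For H3K9me3, the MamGypLTR subfamilies were again mostly above the middle of the table, with a wider scatter of ranks. In the 5-aza-CdR library their z-scores ran from 0.492 to 0.688, with a median of 0.636, against a median of 0.466 for the 366 other subfamilies. In the PBS library they ran from -0.506 to -0.478, with a median of -0.486, against -0.505 for the others. The median percentile was 84.1 in 5-aza-CdR and 79.6 in PBS. At or above percentile 75 were 5 of the 7 in 5-aza-CdR and 4 of the 7 in PBS. In each library 29 of the 75 CpG neighbours lay there, and 94 of all 373 by construction. The neighbours of MamGypLTR3 again ranked lower, with median H3K9me3 percentiles of 62.6 in 5-aza-CdR and 54.0 in PBS. For every other member the neighbour median was at least 71.5 in 5-aza-CdR and 70.6 in PBS. MamGypLTR1d, MamGypLTR2b and MamGypLTR2c were at or above percentile 75 in all 4 libraries (3 of 7, beside 14 of the 75 CpG neighbours and 40 of all 373).

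**Figure D1:**
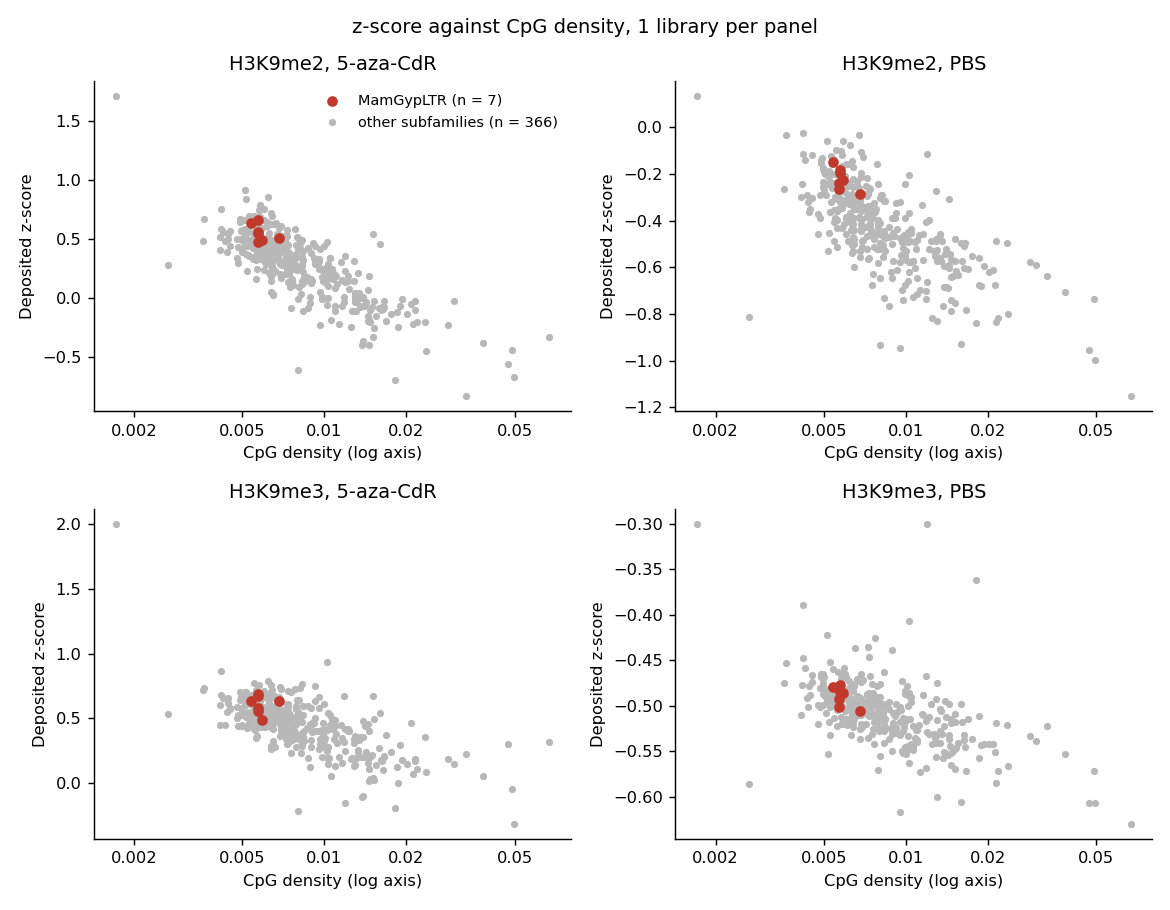
Deposited z-score (vertical axis) against CpG density (horizontal log axis) for all 373 LTR subfamilies, 1 panel per library, with 5-aza-CdR left of PBS. The 7 MamGypLTR subfamilies (red) lie at CpG densities between 0.00538 and 0.00679, MamGypLTR3 being the highest, in the upper part of each H3K9me2 panel.

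The H3K9me3 order of the 7 differed between the arms. MamGypLTR1d had the highest value in 5-aza-CdR, 0.688 (percentile 93.0), and -0.485 in PBS (percentile 81.2). MamGypLTR2c had 0.675 in 5-aza-CdR (percentile 91.1) and -0.478 in PBS (percentile 87.4). MamGypLTR2b had 0.638 in 5-aza-CdR (percentile 84.4) and -0.479 in PBS (percentile 85.8). These were the highest 3 of the 7 in both arms. MamGypLTR1b had 0.583 in 5-aza-CdR (percentile 77.4) and -0.493 in PBS (percentile 68.0). MamGypLTR1a had 0.557 in 5-aza-CdR (percentile 72.3) and -0.502 in PBS (percentile 54.0). Both ranked lower in PBS than in 5-aza-CdR.

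MamGypLTR3 and MamGypLTR1c moved in opposite directions in H3K9me3 rank. MamGypLTR3 had a z-score of 0.636 in 5-aza-CdR (percentile 84.1) and -0.506 in PBS (percentile 47.0), a difference of 37.1 percentile points that was the 29th largest of 373. MamGypLTR1c had 0.492 in 5-aza-CdR (percentile 55.1) and -0.486 in PBS (percentile 79.6), a difference of -24.5 points that was the 49th lowest of 373. The 7 PBS values spanned 0.0284 z-score units, against 0.197 units in 5-aza-CdR. The whole H3K9me3 PBS library was narrower as well. The SD over the 7 was 30.7% of that over all 373 in PBS and 34.0% in 5-aza-CdR. The spans therefore do not show that ranks are less firm in PBS. The error of a percentile in either library is unknown without a replicate.

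**Figure D2:**
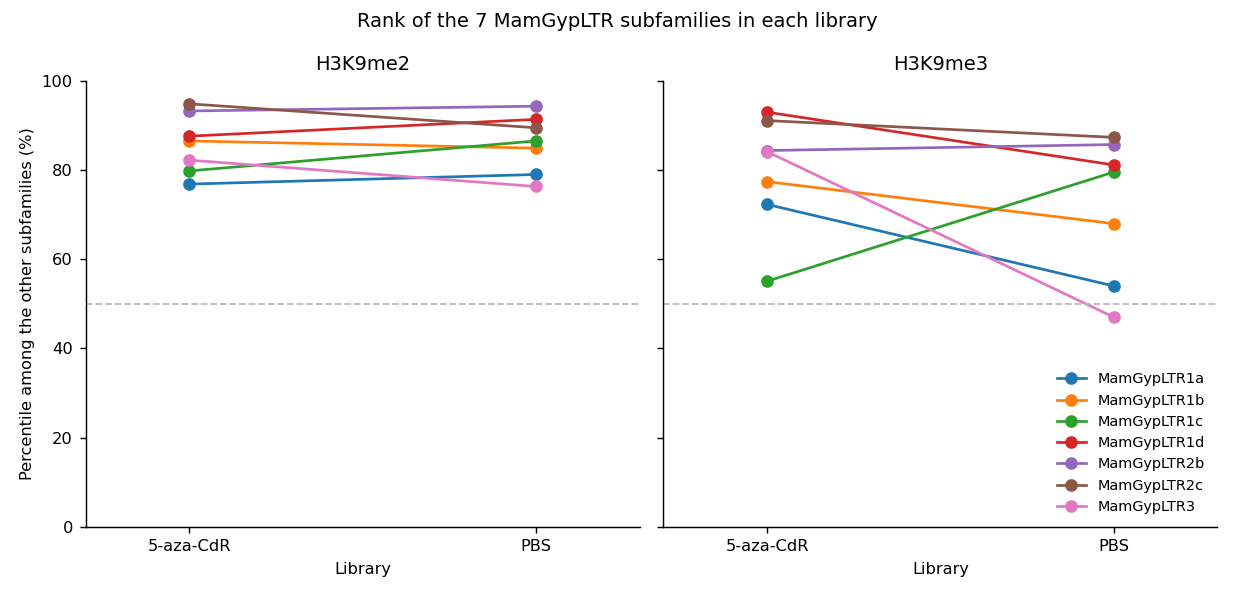
Percentile of each MamGypLTR subfamily among the other 372 subfamilies (vertical axis, %) in the 5-aza-CdR and PBS libraries, for H3K9me2 (left) and H3K9me3 (right); the dashed line marks the 50th percentile. The H3K9me2 lines stay between 76.3 and 94.9, whereas for H3K9me3 MamGypLTR3 is at 84.1 in 5-aza-CdR and 47.0 in PBS and MamGypLTR1c at 55.1 and 79.6.

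Against LTRs of similar CpG density, the MamGypLTR subfamilies were higher for H3K9me2 in PBS, mostly higher for both marks in 5-aza-CdR and on both sides for H3K9me3 in PBS. In the H3K9me2 PBS library all 7 lay above the median of their 20 CpG neighbours, by 0.0106 at MamGypLTR1a to 0.0952 at MamGypLTR1d, with a median of 0.0730 z-score units. Of the 7, 5 were above the upper quartile of their neighbours. In the H3K9me2 5-aza-CdR library 5 of 7 lay above the neighbour median, and the median offset was 0.0806. MamGypLTR2b was furthest above, by 0.140, and MamGypLTR1a (-0.0258) and MamGypLTR1c lay below it. With 10 or with 40 neighbours in place of 20, all 7 lay above it in 5-aza-CdR as well, by a median of 0.124 and 0.107. With neighbours by ratio of CpG density, or on percentiles, the count in 5-aza-CdR stayed at 5 of 7. On percentiles the median offset from the neighbours was 10.2 points in each H3K9me2 library.

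For H3K9me3 in 5-aza-CdR, 5 of 7 lay above the neighbour median, with a median offset of 0.0825 z-score units or 12.9 percentile points. The furthest above was MamGypLTR1d (0.118), which exceeded 17 of its 20 neighbours, and the furthest below was MamGypLTR1c (-0.0832), which exceeded 2 of 20. In the H3K9me3 PBS library the 7 straddled their neighbours, with 4 above and 3 below the neighbour median and a median offset of 0.000922. MamGypLTR2b exceeded 18 of its 20 neighbours there, and MamGypLTR1a exceeded 2 of 20. Without the LTRs numbered 78 and above and the names beginning with Mam among the neighbours, the median offsets were 0.124 in 5-aza-CdR and 0.0865 in PBS for H3K9me2, each with 7 of 7 above. For H3K9me3 they were then 0.110 in 5-aza-CdR, with 6 of 7 above, and 0.000922 in PBS, with 4 of 7 above. The neighbour sets of MamGypLTR1a, MamGypLTR1b, MamGypLTR1d and MamGypLTR2c cover nearly the same CpG densities. The counts above the neighbour median therefore largely repeat 1 comparison for these members. The offsets also describe 4 single libraries, so no test was made.

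**Figure D3:**
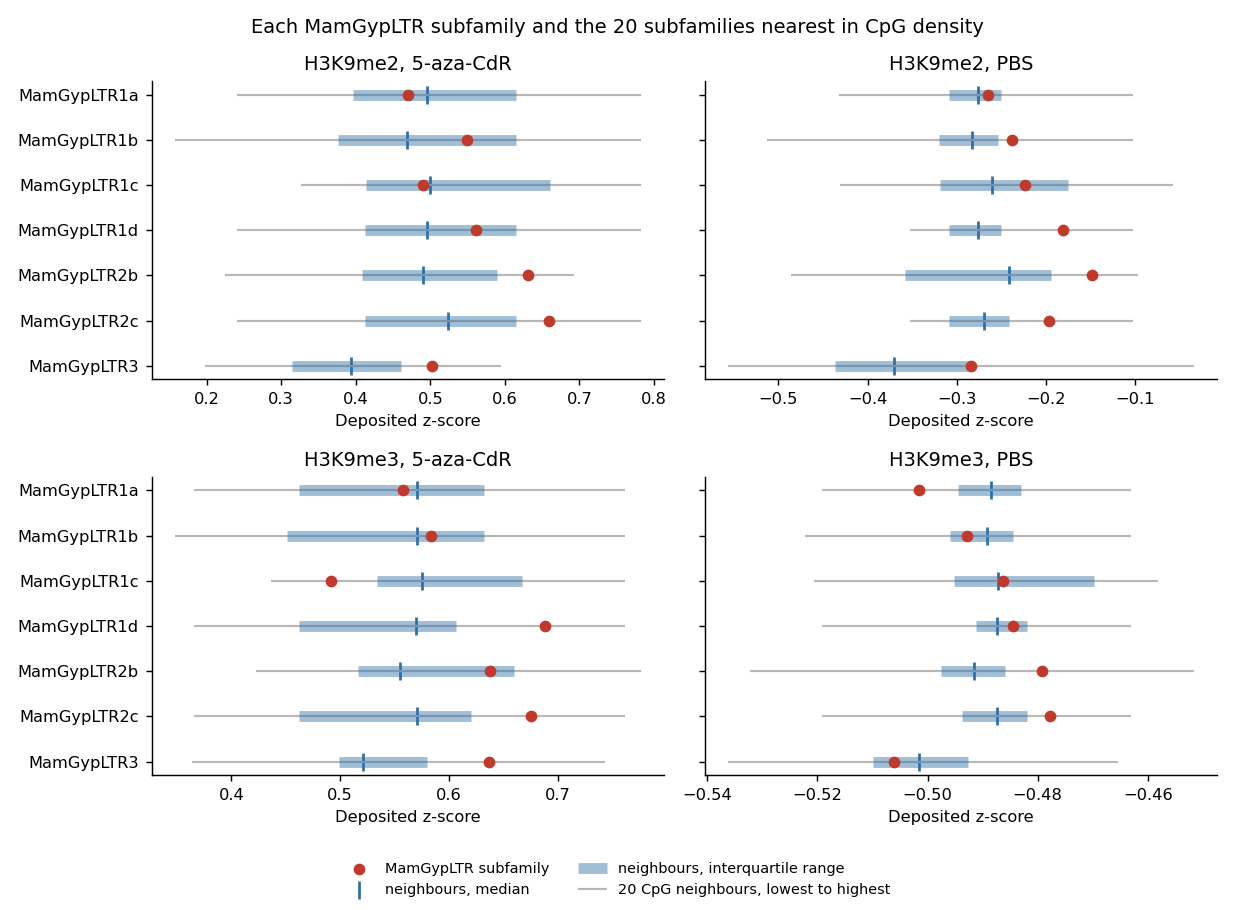
Deposited z-score (horizontal axis) of each MamGypLTR subfamily (red point) beside its 20 CpG neighbours (grey line, lowest to highest; blue bar, interquartile range; blue tick, median), 1 panel per library with 5-aza-CdR left of PBS. In the H3K9me2 PBS panel all 7 red points lie right of the neighbour median, and in the H3K9me3 PBS panel 4 do.

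The single subfamily nearest in CpG density shows how far repeats of equal CpG density can differ. MamGypLTR2c and LTR48B, with densities of 0.00572 each, had H3K9me2 z-scores of 0.659 for MamGypLTR2c and 0.374 for LTR48B in 5-aza-CdR, and of -0.197 and -0.256 in PBS. Their H3K9me3 z-scores were 0.675 for MamGypLTR2c and 0.435 for LTR48B in 5-aza-CdR, and -0.478 and -0.479 in PBS. This pair lay close in PBS and apart in 5-aza-CdR, most plainly for H3K9me3. LTR48B was also the nearest in CpG density to MamGypLTR1d (0.688 for H3K9me3 in 5-aza-CdR). MamGypLTR2b and LTR54 lay close for H3K9me3, at 0.638 for MamGypLTR2b and 0.660 for LTR54 in 5-aza-CdR and -0.479 each in PBS. For H3K9me2 MamGypLTR2b was the higher, with 0.631 against 0.489 for LTR54 in 5-aza-CdR and -0.149 against -0.238 in PBS.

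The other pairs went both ways. MamGypLTR1a was below LTR86A2, its nearest, for H3K9me2 in 5-aza-CdR (0.470 against 0.609) and above it for H3K9me3 in 5-aza-CdR (0.557 against 0.466). LTR86A2 was also nearest to MamGypLTR1b, which had 0.549 for H3K9me2 and 0.583 for H3K9me3 in 5-aza-CdR. MLT1 LTRs belong to the MaLR group, old mammalian relatives of the ERVL retroviruses. MamGypLTR3 was above MLT1G in 5-aza-CdR for H3K9me2 (0.503 against 0.403) and for H3K9me3 (0.636 against 0.518), while in PBS its H3K9me3 z-score was the lower (-0.506 against -0.498). MamGypLTR1c was above MLT1E1A in 5-aza-CdR for H3K9me2 (0.490 against 0.408) and below it for H3K9me3 (0.492 against 0.514).

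The comparison of 5-aza-CdR with PBS asks how the marks on these repeats differ after inhibition of DNA methylation. For H3K9me2 the z-score of all 7 was higher in 5-aza-CdR, by 0.714 at MamGypLTR1c to 0.856 at MamGypLTR2c, with a median of 0.780. The median difference over all 373 subfamilies was 0.702, and 7 of 7 exceeded it, beside 49.9% of the table and 53 of the 75 CpG neighbours. A robust SD is the median absolute deviation scaled to match an SD. A limit of 2 robust SDs from the table median lay at 0.452 and 0.952. None of the 7 passed it: 0 were above it, where 2.95% of the table was, and 0 below it, where 8.04% was. Relative to their CpG neighbours, 4 of 7 had the larger H3K9me2 difference, with a median offset of 0.0227, and all 7 lay within the interquartile range of their neighbours. That direction turned on the other scales: the median offset was -0.672 percentile points, with 3 of 7 above, and -0.091 with SD 1 in each library, with 2 of 7 above.

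On percentiles the H3K9me2 difference of the MamGypLTR subfamilies lay on both sides of 0. The difference in percentile ran from -6.72 points at MamGypLTR1c to 5.91 at MamGypLTR3, with a median of -1.08. The percentile was higher in 5-aza-CdR for MamGypLTR1b, MamGypLTR2c and MamGypLTR3, 3 of 7, beside 44% of all subfamilies. The median over all subfamilies was -1.34 points. With each library set to mean 0 and SD 1, the median of the 7 lay 0.21 robust SDs below that of all subfamilies (-0.21), whereas as deposited it lay 0.62 above. As deposited, that median was 0.295 for the 4 MamGypLTR1 subfamilies alone and 0.674 for the MamGypLTR2 and MamGypLTR3 subfamilies. The side of the table median on which these repeats fall for the H3K9me2 difference thus depends on the scale.

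For H3K9me3 the z-score of all 7 was also higher in 5-aza-CdR, by 0.978 at MamGypLTR1c to 1.17 at MamGypLTR1d, with a median of 1.12. The median over all 373 subfamilies was 0.973, and 7 of 7 exceeded it, beside 49.9% of the table and 59 of the 75 CpG neighbours. The H3K9me3 SD over all 373 was 0.206 in 5-aza-CdR, only 0.0354 in PBS and 0.190 for the difference. As deposited, the H3K9me3 difference therefore mostly repeats the 5-aza-CdR z-score and is not a separate result. The limit of 2 robust SDs lay at 0.687 and 1.26. Again 0 of 7 were above it, where 1.88% of the table was, and 0 of 7 below it, where 7.24% was. The differences of MamGypLTR2c (1.15), MamGypLTR3 (1.14) and MamGypLTR2b (1.12) came next to that of MamGypLTR1d, and those of MamGypLTR1b (1.08) and MamGypLTR1a (1.06) were smaller. Relative to their CpG neighbours, 6 of 7 had the larger H3K9me3 difference, by a median of 0.0630. MamGypLTR1c was the exception at -0.0726. MamGypLTR1a was larger by only 0.00369, with 10 neighbours below it and 10 above. Of the 7, 3 exceeded the upper quartile of their neighbours, 3 lay within the interquartile range and 1 lay below it. On percentiles 5 of 7 lay above the neighbour median, by a median of 9.95 points, and 5 lay within the interquartile range.

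On percentiles the H3K9me3 difference ran from -24.5 points at MamGypLTR1c to 37.1 at MamGypLTR3, with a median of 9.41, against -0.806 over all subfamilies. The percentile was higher in 5-aza-CdR for 5 of 7, beside 48.3% of all subfamilies and 36 of the 75 CpG neighbours. MamGypLTR1a (18.3 points), MamGypLTR1d (11.8), MamGypLTR1b (9.41) and MamGypLTR2c (3.76) followed MamGypLTR3, and MamGypLTR2b (-1.34) was the other that ranked lower. The median of the 7 stayed above that of all subfamilies with SD 1 in each library (0.39 robust SDs) and on percentiles (0.52), as it did on the deposited scale (1.01). As deposited it was 0.666 for the MamGypLTR1 subfamilies alone and 1.19 for the MamGypLTR2 and MamGypLTR3 subfamilies.

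**Figure D4:**
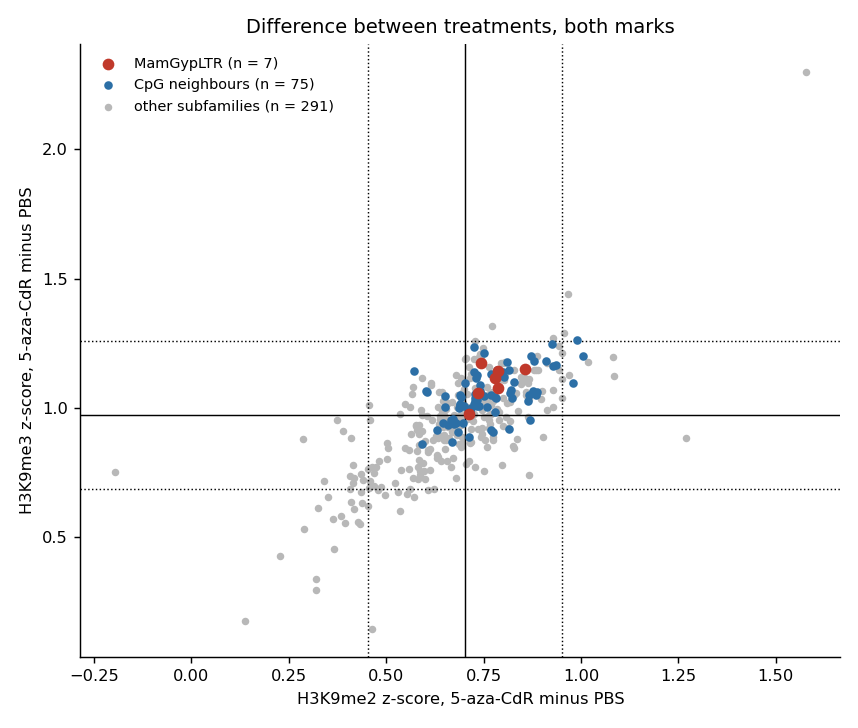
z-score difference between 5-aza-CdR and PBS for H3K9me2 (horizontal axis) and H3K9me3 (vertical axis) in all 373 subfamilies; solid lines mark the table medians (0.702 and 0.973) and dotted lines the limits of 2 robust SDs. The 7 MamGypLTR subfamilies (red) lie above both medians and inside both limits, among their CpG neighbours (blue).

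The subfamilies of the group differed less from one another than LTRs at large. The SD over the 7 was 0.0717 in 5-aza-CdR and 0.0476 in PBS for H3K9me2, against 0.290 and 0.187 over all 373 subfamilies. For H3K9me3 it was 0.0699 in 5-aza-CdR and 0.0109 in PBS, against 0.206 and 0.0354. The CpG neighbours, which share the narrow range of CpG density, also varied less than the table. Their H3K9me2 SDs were 0.140 in 5-aza-CdR and 0.116 in PBS, and their H3K9me3 SDs 0.0965 and 0.0178. For H3K9me3 in 5-aza-CdR the interquartile range of the 7 ran from 0.570 to 0.656. It was narrower for the MLT2 LTRs (0.519 to 0.562) and for the THE1 and MST LTRs (0.445 to 0.496). It was wider for the LTRs numbered 78 and above, MLT1, LTR12 and LTR7. A narrow spread there was thus not particular to the MamGypLTR group. By numbered group, the mean H3K9me2 percentile was 94.1 in 5-aza-CdR and 91.9 in PBS for the 2 MamGypLTR2 subfamilies, and 82.7 and 85.5 for the 4 MamGypLTR1 subfamilies. The mean H3K9me3 percentile was 87.8 in 5-aza-CdR and 86.6 in PBS for MamGypLTR2, and 74.5 and 70.7 for MamGypLTR1. MamGypLTR1d was an exception for H3K9me3 in 5-aza-CdR, at percentile 93.0 against 84.4 and 91.1 for the MamGypLTR2 subfamilies.

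Between the marks, the MamGypLTR subfamilies ranked lower for H3K9me3 than for H3K9me2 in PBS. The percentile for H3K9me3 was below that for H3K9me2 in 7 of 7 in PBS, by 2.15 points at MamGypLTR2c to 29.3 at MamGypLTR3, beside 48 of the 75 CpG neighbours and 211 of all 373. All 7 were at or above percentile 75 for H3K9me2, which leaves more room below, and these shares include subfamilies of any H3K9me2 rank. The LTRs numbered 78 and above had median PBS percentiles of 90.5 for H3K9me2 and 79.0 for H3K9me3, against 86.6 and 79.6 for the 7. The THE1 and MST LTRs went the other way (51.2 and 61.6), as did LTR12 (8.60 and 11.3). In 5-aza-CdR it was below in 5 of 7, beside 54 of the 75 neighbours and 213 of all 373. MamGypLTR1d and MamGypLTR3 ranked higher for H3K9me3 there, by 5.38 and 1.88 points. MamGypLTR1c had the widest gap in 5-aza-CdR, at -24.7 points. Percentiles were used because the spread of z-scores differs between the marks.

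Among the families compared by name, the LTRs numbered 78 and above had H3K9me3 medians close to those of the MamGypLTR repeats and somewhat higher H3K9me2 medians. Those 30 subfamilies, with a median CpG density of 0.00529, had median H3K9me2 z-scores of 0.586 in 5-aza-CdR and -0.193 in PBS, and median H3K9me3 z-scores of 0.622 and -0.487. The MLT2 LTRs of ERVL (12 subfamilies, median CpG density 0.00565) had H3K9me2 medians of 0.471 in 5-aza-CdR and -0.289 in PBS and H3K9me3 medians of 0.540 and -0.490. The MamGypLTR medians lay above those of MLT2 in all 4 libraries, and between MLT2 and the LTRs numbered 78 and above for H3K9me2. The MLT1 LTRs (28 subfamilies) had H3K9me2 medians of 0.441 in 5-aza-CdR and -0.314 in PBS, and the THE1 and MST LTRs (10 subfamilies) had 0.235 and -0.404. The CpG-rich LTR12 repeats of ERV9 and LTR7 repeats of HERV-H were at the other end, with H3K9me2 medians in 5-aza-CdR of -0.235 and -0.182. The 5 other subfamilies nearest to the median percentiles of the 7 over the 4 libraries were LTR81A, LTR84a, MLT2B2, LTR85b and LTR82A. LTR81A differed from those medians by 2.15 percentile points on average and LTR82A by 4.37. MamGypLTR1a, the member furthest from the same medians, differed by 13.6 points, and 76 of the 366 other subfamilies lay at least as near as that.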

How the data were processed

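Native ChIP-seq of H3K9me2 and H3K9me3 in HCT116 gave 4 libraries, 1 per mark and treatment. Alignment used Bowtie2 and hg19, per the submitters' processing notes. The authors deposited a standardised score (z-score) for each LTR subfamily and library, per the file headers. The CpG density is a ratio the authors deposited, whose denominator the header does not state. No source used here gives the handling of multi-mapping reads, any input library, the population of the z-score or the depth. Repeat consensus sequences and genomic positions were not used here.

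Differences are 5-aza-CdR minus PBS, and percentiles were ranked over all 373 subfamilies. CpG neighbours are the 20 non-MamGypLTR subfamilies nearest by absolute difference in CpG density. The neighbour comparison was tested on simulated data for the difference between the arms only. The simulated CpG trend was the same in both arms, so neither the matching by CpG density nor the level offsets were checked. Named subfamilies were the 7 members, the nearest in CpG density to each, and the 5 nearest to their median percentiles. With 1 library per group there was no test. Members, lists and alternatives were chosen with earlier results of these data known. Calculations used Python 3.11.15, pandas 2.3.3 and numpy 2.4.6.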

Additional observations from a re-analysis of the deposited data

How the results depend on the processing

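Of 58 recomputed values, 54 moved by less than the spread over the 7 subfamilies, or kept their count. The 4 that moved more concern the median difference between 5-aza-CdR and PBS, in robust SDs from the median of all subfamilies. For H3K9me2 it was 0.62 as deposited, -0.21 with SD 1 in each library and 0.022 on percentiles. For H3K9me3 it was 1.01 as deposited, 0.39 with SD 1 and 0.52 on percentiles. Among those within the spread, the MamGypLTR1 subfamilies alone gave 0.295 for H3K9me2 and 0.666 for H3K9me3, each more than 1.5 times smaller than for all 7. The SD 1 and percentile scales remove the shift and the wider spread of the 5-aza-CdR libraries by construction. The number of MamGypLTR subfamilies beyond the limit was 0 under each limit and scale tried. The H3K9me2 difference relative to CpG neighbours (0.0227) was -0.672 points on percentiles (3 of 7 above) and -0.091 with SD 1 (2 of 7 above), a change of sign within the spread over members. Leaving out LTR5 and LTR11, which hold rounded values, and using 10 or 40 neighbours or neighbours by ratio of CpG density changed no direction of these medians. No paired analysis was possible because each group holds 1 library, and no replicate could be left out. Depth is unknown, so its limit on each z-score could not be computed.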
